A study of Homo sapiens with 26 samples.

Results

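The genes described here are 10 target genes of the transcription factor NF-kB. They include the chemokine genes CXCL8, CXCL1, CXCL2, CXCL3 and CCL20, the cytokine gene IL6 and the adhesion molecule gene ICAM1. The others are the feedback inhibitor genes TNFAIP3 and NFKBIA, and BIRC3. All 10 were chosen by name, with earlier results of these data known. Of these, 9 were measured by 1 probe set each, among 17687 genes in all, and BIRC3 is not analysed here. Total RNA of 3 human lung cancer cell lines, grown in RPMI1640 with serum, was hybridised to 26 microarrays with 1 colour each. The lines were NCI-H1975 (H1975), labelled lung adenocarcinoma, and A549 and NCI-H1299 (H1299), both labelled lung carcinoma. Omomyc, a mutated form of the part of MYC that pairs with MAX, displaces MYC from MAX and occupies its DNA sites. Plated cells received it at 12.8 µM, and control cells received the vehicle, phosphate-buffered saline (PBS). How long cells were exposed is not stated in the labels. There were 5 Omomyc and 4 PBS arrays of H1975, 3 Omomyc and 4 PBS arrays of A549, and 5 Omomyc and 5 PBS arrays of H1299. The labels call arrays of a group biological replicas of 1 line. PBS holds no protein, so what Omomyc does and what any added protein would do cannot be told apart.

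NF-kB dimers are held in the cytoplasm by inhibitor proteins until signals such as tumour necrosis factor or interleukin-1 lead to the inhibitors' degradation. The freed dimers enter the nucleus and induce chemokine, cytokine and adhesion genes. They also induce genes that end the signal: NFKBIA encodes the inhibitor IkB-alpha, and TNFAIP3 encodes a ubiquitin-editing enzyme that acts upstream of the kinase complex. CXCL8, CXCL1, CXCL2 and CXCL3 encode related chemokines that attract neutrophils, and CCL20 encodes a chemokine for cells with the receptor CCR6. ICAM1 encodes a surface ligand of leukocyte integrins, and IL6 a cytokine that signals through IL6ST. In lung tumours these products are known for drawing leukocytes to the tumour.

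The promoters show what these genes share besides their function. RefSeq windows of GRCh38.p14, each 300 bases long and reaching from 250 bases before the annotated start to 50 after it, were found for all 10 genes and searched on both strands. The kB consensus, the family of sequences that NF-kB dimers bind, was matched in 8 of 10 windows (all but those of CXCL8 and ICAM1), against 10.8% of 27305 promoters. The shorter GGAATTTCC, which overlaps the consensus and was added after the first search, was matched in the windows of CXCL8, CXCL1, CXCL2, CXCL3, NFKBIA and ICAM1, against 0.472% of all promoters. The AP-1 sites TGACTCA and TGAGTCA, which are each other's reverse complement, were matched only in CXCL8 (4.92% of all promoters). CACGTG, the E-box bound by MYC and MAX, was matched only in TNFAIP3 (7.43%), 78 to 73 bases before the start. A match is a run of letters, not a measured binding site. The stretches from 160 to 41 bases before the start follow for 5 of the 10 genes, ICAM1 not among them. They are written 5′ to 3′ along the gene's strand, with motif matches on either strand in capitals.
CXCL8, chr4:73740409-73740528, plus strand: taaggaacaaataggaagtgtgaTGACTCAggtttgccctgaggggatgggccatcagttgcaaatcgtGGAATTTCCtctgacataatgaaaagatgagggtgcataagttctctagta
CCL20, chr2:227813682-227813801, plus strand: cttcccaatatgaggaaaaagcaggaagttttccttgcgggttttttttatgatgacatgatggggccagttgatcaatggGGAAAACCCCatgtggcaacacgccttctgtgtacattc
CXCL2, chr4:74099236-74099355, minus strand: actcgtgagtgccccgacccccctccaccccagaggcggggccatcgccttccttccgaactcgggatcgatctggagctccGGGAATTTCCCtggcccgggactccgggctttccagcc
TNFAIP3, chr6:137867099-137867218, plus strand: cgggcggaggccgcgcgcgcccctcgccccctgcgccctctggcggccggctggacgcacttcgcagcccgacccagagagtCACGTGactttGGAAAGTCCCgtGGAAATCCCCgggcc
NFKBIA, chr14:35404790-35404909, minus strand: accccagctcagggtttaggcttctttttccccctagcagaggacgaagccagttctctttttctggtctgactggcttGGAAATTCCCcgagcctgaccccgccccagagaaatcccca

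Deposited values, on a log2 scale, ran between 1.35 and 19.91. The 23 background probe sets had means between 2.34 and 6.69, and a fold is uncertain where the lower group's mean lies under 6.69. This was so for CCL20 and CXCL8 in all 3 lines, for CXCL1 and CXCL3 in H1975 and H1299, for CXCL2 in H1975, for IL6 in A549 and H1299, and for ICAM1 in A549 without PBS replicate 3. CXCL1, CXCL2 and CXCL3 have very similar sequences, and whether their probe sets catch each other's transcripts was not tested. The value distributions parted the arrays into clusters of 9, 10 and 7, which no label names. They are called runs here (normalization runs in a figure title), as a name only. Whether these arrays were normalized apart is not stated in the labels. Every run held both treatments of every line, with 1 exception (A549 lacked an Omomyc array in run 3), so differences within runs are given beside the pooled ones. AKR1B10, a target of NRF2 known to be high in A549, averaged 3.75 in H1975, 17.10 in A549 and 3.0 in H1299 PBS arrays. The leukocyte markers PTPRC, CD3E and ITGB2 and the endothelial markers PECAM1, CDH5 and VWF averaged at most 3.88 in any group. Only CD68 of the leukocyte list was above background, with group means between 9.09 and 14.35. Of the epithelial markers, KRT8 and KRT18 were above 6.69 in all lines, whereas EPCAM and CDH1 averaged 3.92 and 3.33 in H1299 PBS arrays, and CDH1 3.93 in those of H1975.

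A549 PBS replicate 3 stood apart from the other PBS arrays of its line. It was the highest of the 4 in 7 of the 9 NF-kB target genes and in 23 of 25 immediate early genes, against 43.7% of all genes. Relative to the mean of the other 3 arrays its median deviation was 1.02 over the 9 genes, 2.35 over the immediate early genes and 0.21 over all genes. Among the 9 genes the deviation was largest for CXCL8 (2.98), CCL20 (2.11) and CXCL2 (2.02), each at or above the 99.6th percentile of all genes, and it was -0.28 for NFKBIA. Immediate early genes encode factors that cells induce within minutes of serum, stress or handling. EGR1, which had the largest deviation and was picked for that, was at 15.82 on this array and between 4.93 and 5.62 on the other 3. The mean level of the immediate early list was 12.08 on this array, between 8.87 and 9.36 on the other PBS arrays of A549 and between 8.74 and 9.19 on its Omomyc arrays. Over the PBS arrays of H1975 and H1299 it lay between 9.07 and 10.16. The part of this state in the A549 results was not tested beyond leaving the array out, and the A549 responses of the 9 genes are given with and without it.

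**Figure D1:**
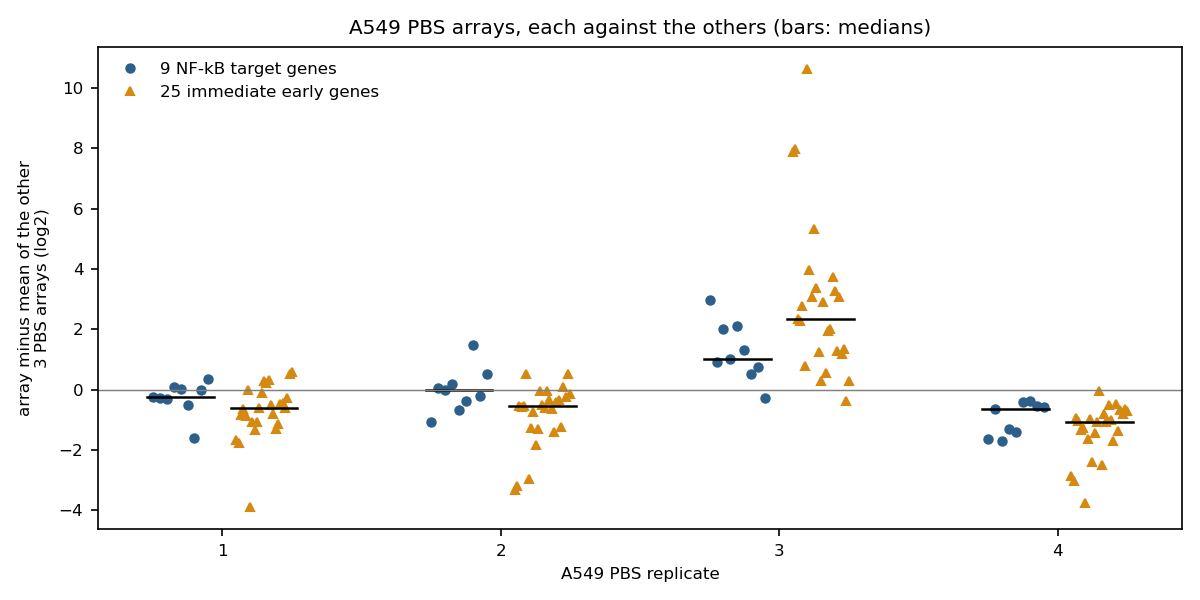
Deviation of each A549 PBS array from the mean of the other 3 (log2, vertical axis) by replicate number, for the 9 NF-kB target genes (circles) and 25 immediate early genes (triangles), with medians as bars. On replicate 3 the medians are 1.02 and 2.35, and 7 of the 9 circles belong to genes for which this array was the highest.

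In PBS the 3 lines expressed different sets of these genes: A549 had the highest CXCL8, CXCL1, CXCL3 and CCL20, H1299 the highest CXCL2, and H1975 the highest IL6 and ICAM1. All 9 genes differed between the lines in limma's moderated F test (adjusted p of at most 0.000405), against 56.1% of all genes. Of the 9, 7 differed between H1975 and A549, 6 between H1975 and H1299 and 8 between A549 and H1299, against 38.3%, 42% and 41.5% of all genes. CXCL8 was at 5.86, 5.68, 5.68 and 6.54 in H1975, at 8.63, 8.02, 11.05 and 7.58 in A549, and at 3.30, 2.91, 3.74, 2.65 and 3.13 in H1299. The lines did not overlap, and every pair differed (H1975 minus A549 -2.88 ± 0.49, SE, adjusted p = 1.51e-05). The H1299 values lay in the range of background probe sets. CXCL1 averaged 4.77 ± 0.35 in H1975 (SD, n = 4), 8.11 ± 0.50 in A549 (n = 4) and 5.43 ± 0.60 in H1299 (n = 5). A549 stood above both other lines in CXCL1, and the difference between H1975 and H1299 did not pass (adjusted p = 0.111). For CXCL3 the means were 5.61 ± 0.92, 8.15 ± 0.72 and 6.05 ± 0.40 in the same order of lines. For CXCL3 the difference between H1975 and H1299 again did not pass (adjusted p = 0.407), although with a block for the run it did (-0.59, adjusted p = 0.0498).

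CXCL2 had another order, with 6.90, 7.58, 6.61 and 5.07 in H1975, 7.92, 8.13, 9.66 and 6.88 in A549, and 10.47, 10.84, 9.60, 8.80 and 9.50 in H1299. H1299 exceeded both other lines (A549 minus H1299 -1.70 ± 0.46, adjusted p = 0.0035), whereas H1975 was below A549 by a difference that depended on A549 PBS replicate 3 (-1.60, adjusted p = 0.00916, and -1.10, adjusted p = 0.0679 without it). CCL20 lay between 3.37 and 3.63 in H1975, between 5.39 and 8.04 in A549 and between 2.97 and 3.54 in H1299. Only A549 stood out in CCL20, and the difference between the other lines did not pass (adjusted p = 0.737). IL6 was at 7.32, 7.76, 6.74 and 6.94 in H1975, at 3.19, 3.30, 4.55 and 3.26 in A549 and between 2.56 and 3.41 in H1299. H1975 was the line with IL6 above the brightest background probe set (H1975 minus A549 3.62 ± 0.31, adjusted p = 9.11e-11). The IL6 difference between A549 and H1299 did not pass (adjusted p = 0.0934, or 0.0202 once the run was a block). Without A549 PBS replicate 3 the A549 means were 8.08 for CXCL8, 5.93 for CCL20 and 3.25 for IL6, and of the pairwise PBS calls of the 9 genes the CXCL2 call alone was lost.

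ICAM1 separated all 3 lines, with means of 11.69 ± 0.41 in H1975, 6.71 ± 0.98 in A549 and 8.74 ± 0.22 in H1299 (H1975 minus A549 4.98 ± 0.34, SE, adjusted p = 6.92e-13). The A549 arrays spread widely, at 5.51, 7.81, 7.08 and 6.44, around the level of the brightest background probe set. The inhibitor genes were expressed in every line. TNFAIP3 averaged 9.93 ± 0.26 in H1975, 9.55 ± 0.41 in A549 and 8.58 ± 0.59 in H1299, H1975 minus A549 not passing (adjusted p = 0.37) and H1299 lying below both. NFKBIA averaged 11.56 ± 0.41, 12.12 ± 0.39 and 9.19 ± 0.44, again with no pass for H1975 minus A549 (adjusted p = 0.101) and H1299 lower (H1975 minus H1299 2.37 ± 0.25, SE, adjusted p = 4.03e-09).

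**Figure D2:**
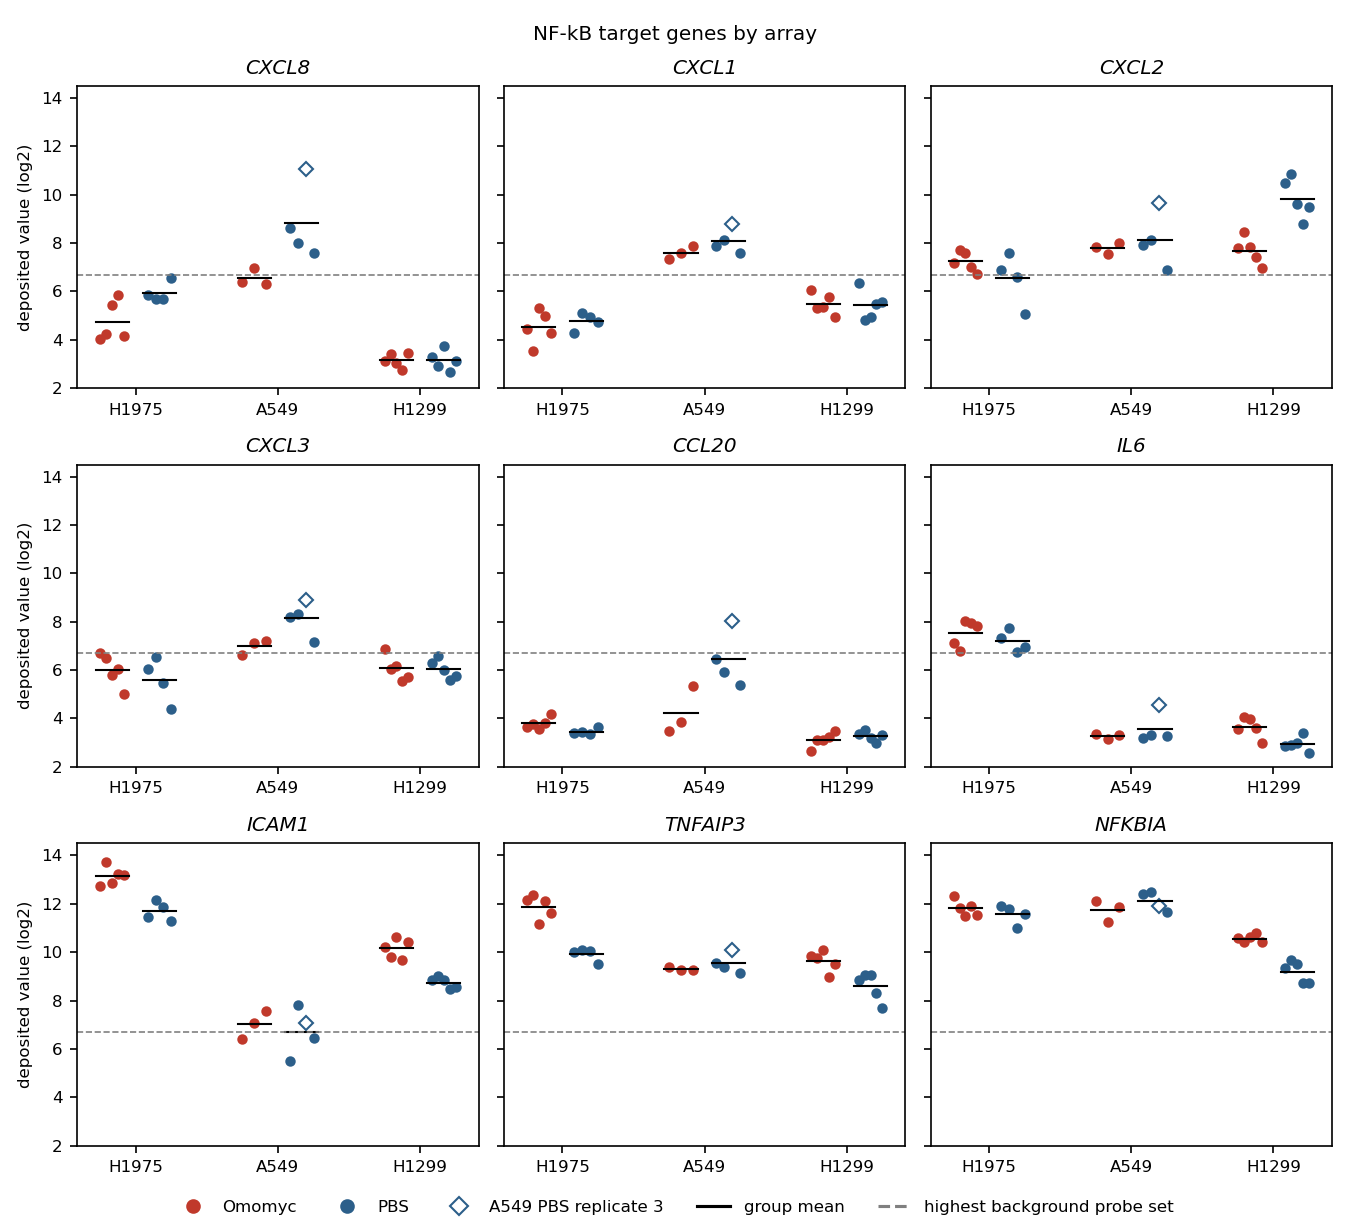
Deposited log2 value of each NF-kB target gene on every array (vertical axis), by line, with Omomyc arrays left of PBS arrays, group means as bars, A549 PBS replicate 3 as an open diamond and the brightest background probe set (6.69) as a dashed line. TNFAIP3 and ICAM1 are higher on all Omomyc arrays than on all PBS arrays of H1975, CXCL2 is lower on all Omomyc arrays of H1299, and CXCL8 and CCL20 are lower on all Omomyc arrays of A549.

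The inhibitor gene TNFAIP3 and the adhesion gene ICAM1 rose with Omomyc in H1975. Of the 9 genes, 2 rose and 0 fell at an adjusted p under 0.05 (Benjamini-Hochberg over all 17687 genes), against 5.57% and 6.28% of all genes. In bulk RNA, fewer cells expressing a gene and less RNA per cell cannot be told apart. At an unadjusted p under 0.05, 1 fell in limma's fit (CXCL8). The share of all genes at that threshold was not counted, here or below. TNFAIP3 was at 12.17, 12.37, 11.17, 12.12 and 11.61 on Omomyc arrays, against 10.02, 10.10, 10.05 and 9.53 on PBS arrays. The groups did not overlap, as in 5.18% of all genes in this direction, and the difference was 1.96 ± 0.28 (SE, adjusted p = 1.53e-05). Within runs 1, 2 and 3 it was 2.25, 1.57 and 2.07. ICAM1 was at 12.74, 13.72, 12.86, 13.23 and 13.20 with Omomyc, against 11.44, 12.17, 11.88 and 11.27 with PBS. Every Omomyc array was above every PBS array, with a difference of 1.46 ± 0.33 (adjusted p = 0.00264) and of 1.79, 1.02 and 1.93 within the runs.

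CXCL8 in H1975 was at 4.03, 4.22, 5.44, 5.85 and 4.14 on Omomyc arrays, against 5.86, 5.68, 5.68 and 6.54 on PBS arrays. The groups overlapped through Omomyc replicate 4. The difference of -1.20 ± 0.46 did not pass (adjusted p = 0.0956). The fit takes each gene's spread from all groups, and without A549 PBS replicate 3 the same difference had an SE of 0.33 and passed (adjusted p = 0.0135), which made 1 of 9 genes lower, against 6.29% of all genes. It also passed without H1975 Omomyc replicate 4 (-1.48, adjusted p = 0.0369). The runs disagreed on its size, with -1.73 in run 1, -0.03 in run 2 and -2.40 in run 3, where run 3 set 1 array against 1. The remaining 6 genes had differences between -0.26 (CXCL1) and 0.70 (CXCL2), none past the threshold. NFKBIA was 11.82 ± 0.34 with Omomyc (SD, n = 5) and 11.56 ± 0.41 with PBS (n = 4), and the 95% interval of its difference was -0.26 to 0.76. IL6, which H1975 expressed at the highest level of the 3 lines, was 7.55 ± 0.57 with Omomyc and 7.19 ± 0.45 with PBS (interval -0.25 to 0.97).

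In A549, the chemokine genes CXCL8 and CCL20 fell and neither inhibitor gene passed the test. Of the 9 genes, 0 rose and 2 fell, against 0.916% and 0.277% of all genes. Without PBS replicate 3, 1 fell, against 0.164%. At an unadjusted p under 0.05 limma's fit also had 0 higher, and 3 lower, with the share of all genes at that threshold not counted. CCL20 was at 3.47, 3.86 and 5.33 on Omomyc arrays, against 6.46, 5.93, 8.04 and 5.39 on PBS arrays. The groups did not overlap, as in 3.60% of all genes in this direction, though the closest Omomyc and PBS arrays nearly met. The difference was -2.23 ± 0.41 (adjusted p = 0.00232), and -1.71 ± 0.33 without PBS replicate 3 (adjusted p = 0.00574). Both group means of CCL20, 4.22 with Omomyc and 6.45 with PBS, lay under 6.69, so the size of its fall is uncertain. CXCL8 was at 6.39, 6.99 and 6.29 with Omomyc, against 8.63, 8.02, 11.05 and 7.58 with PBS. All Omomyc arrays were below all PBS arrays in CXCL8 and CCL20, also without PBS replicate 3, when 4.78% of all genes were so parted. The difference was -2.26 ± 0.52 (adjusted p = 0.0214). Without PBS replicate 3 it was -1.52 ± 0.40 and did not pass (adjusted p = 0.0624), while without that array and with the run as a block it was -1.64 ± 0.39 and passed (adjusted p = 0.0192). The call was also lost without Omomyc replicate 1 (adjusted p = 0.114) or Omomyc replicate 3 (adjusted p = 0.113). With the 7 A549 arrays alone in the fit, neither CXCL8 (adjusted p = 0.22) nor CCL20 (adjusted p = 0.156) passed.

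Within run 1 of A549, which held 2 Omomyc and 2 PBS arrays and not PBS replicate 3, CXCL8 differed by -1.64 (adjusted p = 0.0681) and CCL20 by -2.53 (adjusted p = 0.00698). In run 2, which set Omomyc replicate 3 against PBS replicate 3, CXCL8 differed by -4.76 and CCL20 by -2.71. CXCL3 was at 6.64, 7.13 and 7.19 with Omomyc, against 8.21, 8.31, 8.92 and 7.17 with PBS. Its groups met only at PBS replicate 4 and Omomyc replicate 3, and the difference of -1.17 ± 0.43 did not pass (adjusted p = 0.303), nor did that of -0.91 ± 0.45 without PBS replicate 3 (adjusted p = 0.566). It passed with the replicate block (-1.49, adjusted p = 0.0109) and with a block for the run (-1.43, adjusted p = 0.00304), where 3 of 9 genes fell, against 1.13% of all genes, and in that second fit also without PBS replicate 3 (-1.19, adjusted p = 0.0219). The median difference of the 9 genes was -0.37, and -0.27 without PBS replicate 3, against 0.042 and 0.098 over all genes. TNFAIP3 was at 9.40, 9.27 and 9.26 with Omomyc, against 9.55, 9.40, 10.11 and 9.14 with PBS (difference -0.24, interval -0.90 to 0.42). NFKBIA differed by -0.37 (interval -0.96 to 0.21), ICAM1 by 0.30 (interval -0.46 to 1.06) and CXCL1 by -0.50 (interval -1.25 to 0.26). Without PBS replicate 3 these differences were -0.05 for TNFAIP3, -0.44 for NFKBIA, 0.42 for ICAM1 and -0.27 for CXCL1. CXCL2, high on PBS replicate 3, differed by -0.35 and by 0.15 without that array, and IL6 by -0.31 and 0.01, none of these past the threshold.

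**Figure D3:**
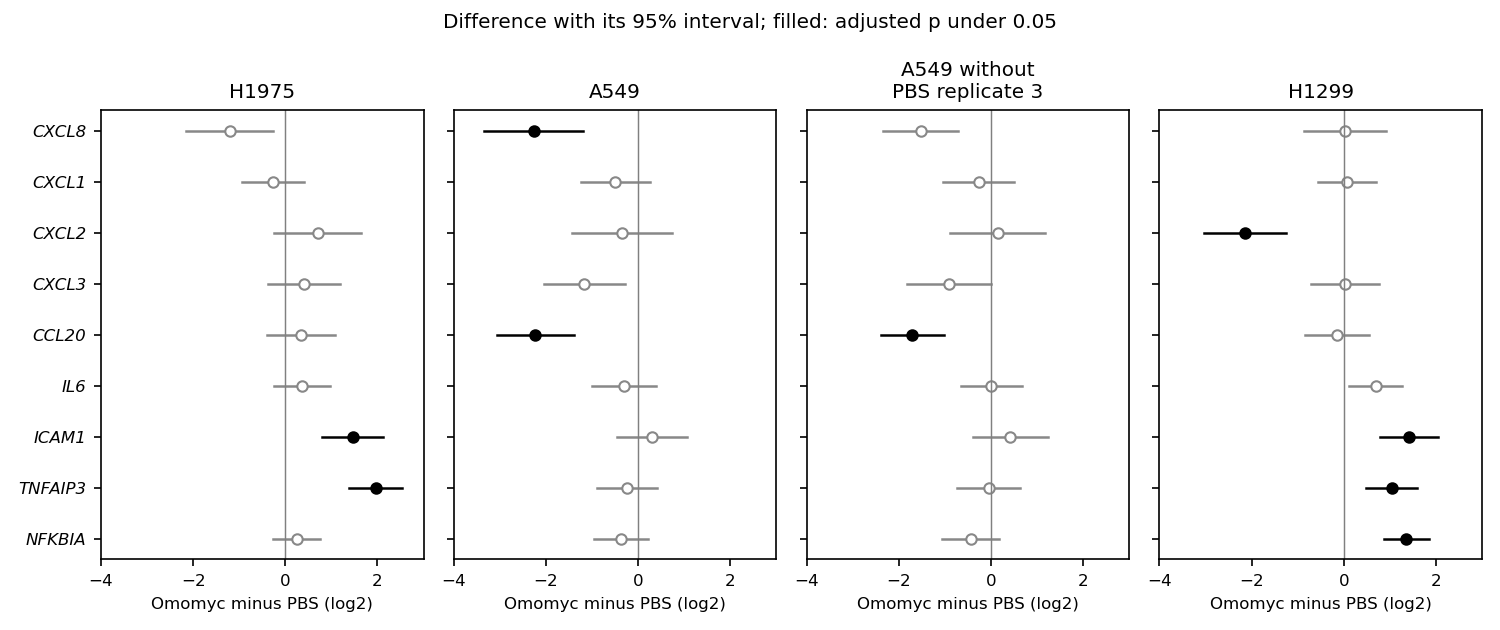
Omomyc minus PBS on the log2 scale (horizontal axis) for each NF-kB target gene, with the 95% interval of the limma fit, by line and for A549 also without PBS replicate 3. Filled points passed an adjusted p under 0.05: TNFAIP3 and ICAM1 in H1975, CXCL8 and CCL20 in A549 (CCL20 alone without PBS replicate 3), and CXCL2, TNFAIP3, NFKBIA and ICAM1 in H1299.

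In H1299, both inhibitor genes and ICAM1 rose and the chemokine gene CXCL2 fell. That made 3 of 9 higher and 1 lower, against 4.35% and 4.52% of all genes. At an unadjusted p under 0.05 limma's fit had 4 higher and 1 lower, with the share of all genes at that threshold not counted. NFKBIA was at 10.57, 10.40, 10.61, 10.78 and 10.42 on Omomyc arrays, against 9.33, 9.66, 9.51, 8.73 and 8.72 on PBS arrays. The groups did not overlap, as in 3.91% of all genes in this direction, and the difference was 1.36 ± 0.23 (adjusted p = 0.00025). ICAM1 was at 10.23, 9.82, 10.63, 9.69 and 10.40 with Omomyc, against 8.83, 9.0, 8.85, 8.48 and 8.54 with PBS. No arrays overlapped, and the difference was 1.42 ± 0.31 (adjusted p = 0.00276). TNFAIP3 was at 9.84, 9.76, 10.07, 8.97 and 9.49 with Omomyc, against 8.84, 9.07, 9.05, 8.29 and 7.68 with PBS. Here 1 Omomyc array lay within the PBS range, and the difference was 1.04 ± 0.27 (adjusted p = 0.0109). It missed the threshold under 4 of 27 alternatives, such as without PBS replicate 5 (0.81, adjusted p = 0.0505).

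CXCL2 in H1299 was at 7.80, 8.46, 7.84, 7.41 and 6.95 with Omomyc, against 10.47, 10.84, 9.60, 8.80 and 9.50 with PBS. All Omomyc arrays were below all PBS arrays, as in 4.09% of genes, and the difference was -2.15 ± 0.44 (adjusted p = 0.00143). H1299 had 7.69 ± 0.56 CXCL2 with Omomyc (SD, n = 5), where the Omomyc means of A549 and H1975 were 7.80 and 7.24. Of its closest relatives, CXCL3 differed by 0.02 (interval -0.71 to 0.76) and CXCL1 by 0.06 (interval -0.56 to 0.69). Both averaged under 6.69 with Omomyc and with PBS, where a fall is hard to read. CXCL8 and CCL20 stayed at background levels in both groups. IL6 was at 3.58, 4.05, 3.97, 3.59 and 2.97 with Omomyc, against 2.86, 2.92, 2.97, 3.41 and 2.56 with PBS. All of these IL6 values lay in the background range, and the difference of 0.69 ± 0.28 did not pass (adjusted p = 0.147). With a block for the run it passed (adjusted p = 0.0478), and 4 of 9 genes were then higher, against 7.73% of all genes. Within runs 1, 2 and 3 CXCL2 differed by -2.67, -2.07 and -1.96, NFKBIA by 1.24, 0.92 and 1.87, ICAM1 by 1.40, 1.30 and 1.54, and TNFAIP3 by 1.00, 0.85 and 1.24.

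**Figure D4:**
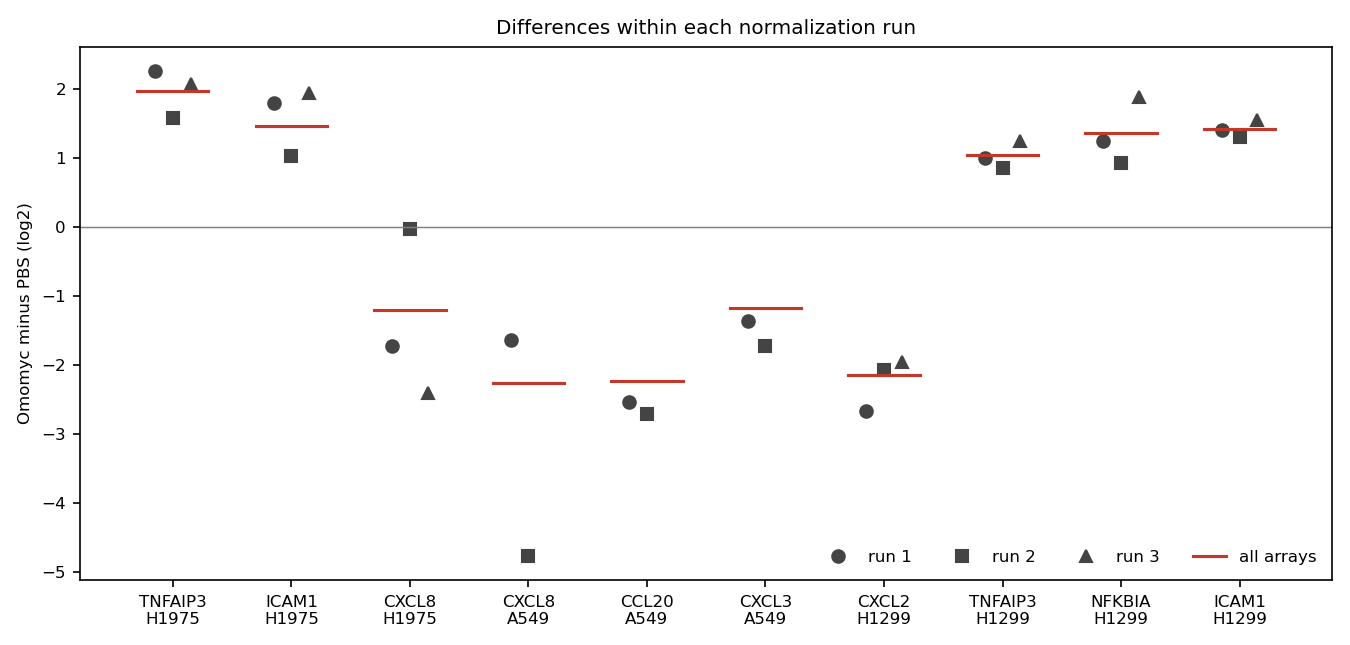
Omomyc minus PBS (log2, vertical axis) within each run (symbols) and over all arrays (bars), for 10 combinations of gene and line. The symbols of TNFAIP3, ICAM1 and NFKBIA are all above 0 and those of CXCL2 in H1299 and CCL20 in A549 all between -2.71 and -1.96, whereas CXCL8 in H1975 is at -0.03 in run 2 and at -1.73 and -2.40 in the others.

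Whether the response differed between lines was tested directly. The moderated F test of the difference passed for 4 of 9 genes, TNFAIP3 (adjusted p = 0.00359), CCL20 (0.00481), NFKBIA (0.00561) and CXCL2 (0.0113), against 8.18% of all genes, and for the same 4 without A549 PBS replicate 3, against 7.77%. Between pairs of lines, 2 of 9 responses differed for H1975 and A549, 1 for H1975 and H1299 and 2 for A549 and H1299, against 4.62%, 5.7% and 2.47% of all genes. Once the run was a block, the F test passed for 6 of 9 genes, against 17.4% of all genes, and the counts between pairs were 3, 3 and 6, against 10.3%, 11.7% and 6.41%. The same genes passed between pairs when A549 PBS replicate 3 was also left out. The 6 genes whose responses then differed between A549 and H1299 were CXCL8 (-2.35 ± 0.62), CXCL3 (-1.45 ± 0.37), CCL20, TNFAIP3 (-1.44 ± 0.32) and NFKBIA, with the lower response in A549, and CXCL2 (1.51 ± 0.46), with the higher one there. In that fit CXCL3 also differed between H1975 and A549 (1.76 ± 0.37). CXCL8, CXCL3 and CCL20 averaged under 6.69 in both groups of H1299, and CXCL3 in both groups of H1975. A fall is hard to read at such levels. The TNFAIP3 response was larger in H1975 than in A549 by 2.20 ± 0.43 (adjusted p = 0.00197), and larger than in H1299 by 0.92 ± 0.39, which did not pass (adjusted p = 0.2) but did with a block for the run (0.89 ± 0.29, adjusted p = 0.0441). The NFKBIA response was lower in A549 than in H1299 by a difference of -1.74 ± 0.37 (adjusted p = 0.00804), and the H1975 and H1299 responses had a difference of -1.11 ± 0.34, which did not pass (adjusted p = 0.0525) but did with a block for the run (-1.16 ± 0.30, adjusted p = 0.0105). For CXCL2 the H1975 response exceeded that of H1299 by 2.85 ± 0.64 (adjusted p = 0.00513). For CCL20 the difference was 2.57 ± 0.54 between H1975 and A549 (adjusted p = 0.00409) and -2.08 ± 0.53 between A549 and H1299 (adjusted p = 0.0288). CCL20 averaged under 6.69 in every group, those of A549 included, and was lowest in H1975 and H1299. CXCL8 did not pass the F test (adjusted p = 0.0794, or 0.0223 once the run was a block), nor did CXCL3 (adjusted p = 0.194, or 0.00281 once the run was a block) or ICAM1 (adjusted p = 0.243), whose responses in H1975 and H1299 differed by 0.05 with an interval of -0.88 to 0.97. TNFAIP3 and ICAM1 were the 2 genes of the 9 that rose in both H1975 and H1299, as did 1.25% of all genes, and 0 of the 9 were called in all 3 lines, against 0.221% of all genes (0 also at an unadjusted p under 0.05).

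Calls among other genes of the pathway went in both directions. Over all genes, 5.57% rose and 6.28% fell in H1975, 0.916% and 0.277% in A549, and 4.35% and 4.52% in H1299. The list counts from here on stand beside these shares, except counts at an unadjusted p, for which no share of all genes was counted. Of 13 measured NF-kB subunit and kinase genes, 2 rose in H1975, 0 passed in A549 (0 at an unadjusted p under 0.05 in limma's fit), and 1 rose and 1 fell in H1299. NFKB2 and RELB encode the dimer of the alternative pathway. In H1975 NFKB2 averaged 9.94 with Omomyc and 8.38 with PBS (difference 1.56 ± 0.26, adjusted p = 0.000101), and RELB differed by 0.82 ± 0.27 (adjusted p = 0.0437). In H1299 RELB rose by 0.85 ± 0.25 (adjusted p = 0.0307), and MAP3K14, the kinase of that pathway, fell to 5.74 with Omomyc, against 7.30 with PBS (adjusted p = 0.00186). Of 13 other inhibitors and regulators 1 rose in H1975 (OPTN, a ubiquitin-binding adaptor gene, by 0.74 ± 0.24), 0 passed in A549 (2 at an unadjusted p under 0.05 in limma's fit) and 1 rose in H1299. That gene was TNIP1, which encodes a partner of the TNFAIP3 protein, with a difference of 0.92 ± 0.17 (adjusted p = 0.000539).

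Among 15 ligand and receptor genes upstream of NF-kB, 3 rose and 2 fell in H1975, and 1 fell in each of A549 and H1299. IL1B rose by 1.74 ± 0.27 in H1975 to a mean of 5.79, within the background range, and IL1RAP, a subunit of the interleukin-1 receptor, by 1.96 ± 0.32. TNFSF10, the ligand TRAIL, fell to 9.33 in H1975 with Omomyc, against 12.06 with PBS. TNFRSF12A, the receptor of the cytokine TWEAK, was the gene of this list that fell in all 3 lines, with differences of -1.32 ± 0.20 in H1975, -1.23 ± 0.23 in A549 (-1.25 ± 0.25 without PBS replicate 3) and -0.66 ± 0.19 in H1299. Of 16 other chemokine and cytokine genes, CCL2 fell in H1975 (-2.21 ± 0.29, adjusted p = 3.12e-06), LIF rose there (1.18 ± 0.30) and CSF1 rose in H1299 (2.02 ± 0.24, adjusted p = 1.11e-06), and 0 passed in A549 (3 at an unadjusted p under 0.05 in limma's fit). With the run as a block 7 of the 16 passed in H1975, in a fit that called 19.2% of all genes there, against 11.8% without the block.

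Of 24 other NF-kB target genes, 6 rose and 2 fell in H1975, 1 rose and 1 fell in A549, and 5 rose and 3 fell in H1299. The median difference was 0.09, -0.14 and -0.03, against 0.004, 0.042 and 0.002 over all genes. Without PBS replicate 3, 1 of the 24 passed in A549, and it rose, against 0.899% of all genes. The median difference was then -0.04, against 0.098 over all genes. RIPK2, a kinase gene of innate immune signalling, rose in H1975 (1.75 ± 0.17) and H1299 (0.68 ± 0.16). PLAUR, the urokinase receptor gene, rose in H1975 (1.49 ± 0.19) and H1299 (0.96 ± 0.18) and fell in A549 (-0.87 ± 0.22, adjusted p = 0.0445, not called without PBS replicate 3). GADD45B, which rose in H1975 (2.12 ± 0.34), fell in H1299 (-1.54 ± 0.32), and G0S2 fell in H1299 (-1.62 ± 0.22). TNFAIP2 (-1.82 ± 0.29) and PTX3 (-1.32 ± 0.26) fell in H1975, and LCN2, the lipocalin gene, rose in A549 to 9.75 with Omomyc, against 7.73 with PBS, and the difference without PBS replicate 3 was 2.28 ± 0.38 (adjusted p = 0.000982). Of 25 immediate early genes 5 rose and 3 fell in H1975, 0 and 1 in A549 and 0 and 4 in H1299. Without A549 PBS replicate 3, the counts were 8 and 5, 0 and 1, and 3 and 6. Shares of all genes were then 5.65% and 6.29%, 0.899% and 0.164%, and 4.43% and 4.55%. NR4A1 (4.34 ± 0.54) and DUSP1 (3.56 ± 0.48) rose and KLF10 (-1.68 ± 0.30) and HBEGF (adjusted p = 0.0361) fell in H1975, JUNB fell in A549 (-2.08 ± 0.46, and -1.39 ± 0.32 without PBS replicate 3), and CCN1 (-1.72 ± 0.27) and CCN2 (-2.34 ± 0.39) fell in H1299. The receptors of these chemokines on leukocytes, CXCR1, CXCR2 and CCR6, averaged at most 3.76 in any group, within the background range. IL6R was the 1 of 9 receptor genes of the measured ligands to pass, rising in H1975 to 9.59 with Omomyc, against 7.62 with PBS (adjusted p = 0.00377). In A549 it differed by 1.35 ± 0.52 and did not pass in limma's fit (adjusted p = 0.333), and by 1.48 ± 0.56 without PBS replicate 3 (adjusted p = 0.321). With the run as a block 1 of the 9 receptor genes rose in A549, against 1.71% of all genes.

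The patterns most like that of CXCL8 over the 26 arrays, among genes above the median level, were those of MYEOV (r = 0.94), NRG1, TMEM37 and EDN1 (each 0.92) and TSPAN14 (0.91). All of these were highest in A549 and lowest in H1299 PBS arrays. EDN1 averaged 6.39 with Omomyc and 8.86 with PBS in H1975. For NFKBIA they were CDC25B, BMERB1 and MYADM (each 0.94) and RAB27B and PLPP3 (each 0.93), all lower in H1299 than in the other lines in PBS. RAB27B averaged 10.05 with Omomyc and 8.31 with PBS in H1299. These correlations are across arrays that share line, treatment and run, and they are given as a description. Among the 9 genes themselves, deviations from the group means correlated most between CXCL2 and CXCL3 (r = 0.79) and CXCL3 and TNFAIP3 (0.66). CXCL2 and TNFAIP3 (0.57) and CXCL8 and CCL20 (0.56) came next. The arrays differ in run and include A549 PBS replicate 3. That array lay above the mean of the other A549 PBS arrays by 2.98 in CXCL8, 2.11 in CCL20 and 2.02 in CXCL2. These correlations were not computed without it.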

How the data were processed

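Values were the log2 values deposited by the authors, 1 column per array. The submitters' processing notes name Partek and RMA and give no versions; RMA corrects background, quantile-normalizes and summarises probes. No build is named. Of 24351 features 17709 had 1 gene symbol, all matched by Entrez ID to RefSeq, 0 had several and 6642 had none. Where a gene had several probe sets (20 genes), that with the highest mean stood for it.

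All 26 arrays entered 1 fit (lmFit and eBayes of limma 3.58.1, with statmod 1.5.0 and R 4.3.3) that had a coefficient for each group, no block and 20 residual degrees of freedom. It gave Omomyc minus PBS by line, the differences of these between lines, and PBS levels between lines, with moderated F tests. Benjamini-Hochberg adjustment ran over all genes and calls took an adjusted p under 0.05. Each SE is that of the fit, and p-values rest on array-to-array spread, part of which may be technical. The number of arrays limits precision. On simulated data with changes of 2 on the log2 scale, 96%, 94% and 99% of 100 genes were recovered in H1975, A549 and H1299, and for changes of 1, 54%, 45% and 62%. The simulated noise had 1 spread per gene, no runs and no array like A549 PBS replicate 3. These shares may therefore not hold for the real arrays.

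Runs are 3 clusters of the arrays' sorted values (average linkage). Where a line had 1 array of a treatment in a run, its spread was taken from other groups. Same-numbered Omomyc and PBS arrays correlated, as deviations from group means, by 0.11 to 0.2 in A549 and 0.26 to 0.39 in H1299. Each of these pairs lay in 1 run. With the run removed no pair exceeded 0.1, so a pairing by number beyond the shared run was not seen. In H1975 1 of 4 pairs exceeded 0.1. All 9 measured members passed the filter tried on dim genes. Named genes are all members, up to 2 rising and 2 falling genes of each other list and line with the smallest p, the 5 most like CXCL8 and NFKBIA, and a few named for their counts or lines after their values were seen (GADD45B, EGR1, EDN1, RAB27B). The members, lists and runs were chosen with earlier results of these data known.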

Additional observations from a re-analysis of the deposited data

Results flagged for a closer look

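Among 45 combinations of gene and group with 4 or 5 arrays, 2 held an array far from the others, and chance alone flags about 1 in 20 groups. IL6 in A549 PBS replicate 3 was at 4.55, where the next array was at 3.30. TNFAIP3 in H1975 PBS replicate 4 was at 9.53, where the next was at 10.02. Leaving either array out changed no call of that gene in that line.

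The response differed between lines, by the test of the difference itself, in 5 cases. The TNFAIP3 response in H1975 minus that in A549 was 2.20, and the CCL20 response in H1975 minus that in A549 was 2.57. The CXCL2 response in H1975 minus that in H1299 was 2.85. The CCL20 response in A549 minus that in H1299 was -2.08, and the NFKBIA response in A549 minus that in H1299 was -1.74. Without A549 PBS replicate 3 these were 2.01, 2.04, 2.85, -1.55 and -1.81, all still past the threshold, the second CCL20 difference narrowly (adjusted p = 0.0485). CCL20 averaged under 6.69 in every group, those of A549 included, and a fall is hard to read at the lower levels of H1975 and H1299.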

How the results depend on the processing

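No called difference of the 9 genes changed its direction under any alternative. TNFAIP3 in H1975 and CXCL2 in H1299 passed under all of theirs, with ranges of 1.57 to 2.25 and -2.67 to -1.90. The call was lost under 2 of 26 alternatives for ICAM1 in H1975. In A549 it was lost under 6 of 23 for CXCL8 and 1 of 23 for CCL20. In H1299 it was lost under 4 of 27 for TNFAIP3, 2 of 27 for NFKBIA and 1 of 27 for ICAM1. The counts of calls in A549 were 2 of the 9 genes and 211 of all. They were 0 and 81 with A549 alone in limma's fit (3 of the 9 at an unadjusted p under 0.05), 1 and 113 at an adjusted p under 0.01, 351 of all genes with quantile normalization and 477 with array weights. Leaving out 1 array gave 1 to 2 of the 9 genes and 128 to 228 of all. In A549, 1 of the 9 genes was called when PBS replicate 3, or either Omomyc replicate 1 or 3, was left out, and all genes had 139 calls without PBS replicate 4 and 128 without Omomyc replicate 1. With the run as a block, 3400, 502 and 2812 genes were called in H1975, A549 and H1299, with it as a random block 3217, 470 and 2677, with it and the replicate block 3460, 525 and 2913, and with it and without A549 PBS replicate 3, chosen after seeing the data, 3398, 375 and 2826. Leaving out 1 array gave 1627 to 2136 calls in H1975 and 1272 to 1657 in H1299. Run 1 alone gave 1018, 50 and 81 calls, with 1 of the 9 genes each in A549 and H1299, and run 2 alone 1047, 44 and 523, with 1 of the 9 in H1975 and 2 in H1299. Run 3 alone gave 780 in H1975. An adjusted p under 0.01 gave 1194 in H1975 and 886 in H1299, and a difference of at least 2-fold 1244 and 804. The share of higher calls in A549, 76.8%, was 64.7% with quantile normalization and 60.4% with the run as a block. The replicate block alone changed 1 call of the 9 genes, that of CXCL3 in A549 (-1.49, adjusted p = 0.0109). In H1975 it changed none. In the F test of PBS levels all 9 genes differed between lines whichever array was left out. That test was not run with the replicate block, within a single line or run, or with the 2-fold threshold. Differences between pairs of lines were less stable, as for CXCL2 between H1975 and A549 without A549 PBS replicate 3. BIRC3 was not analysed here.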
